A study of Mus musculus with 26 samples.

Results

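RNA that came down with hnRNPK from the cytoplasm of ob/ob mouse livers was compared with RNA that came down from the cytoplasm of livers of mice on high-fat diet. The comparison takes 4 of the 26 libraries, chosen by their titles and labels, with 2 immunoprecipitation (IP) libraries in each group. The ob/ob group is strain B6.V-Lepob/J on normal diet, and the high-fat diet group is strain C57BL/6J. A normal-diet group of C57BL/6J mice, with 2 cytoplasmic IP libraries, and total RNA and nuclear IP of the same 3 groups stand beside them. All samples are liver, and the labels used here give no age, sex or number of animals. The groups compared differ in both leptin genotype and diet, which a comparison of these 2 groups alone cannot tell apart. The normal-diet group shares its diet with ob/ob and its strain with high-fat diet. High-fat diet was given only to mice with intact leptin. The cytoplasm was the supernatant of liver ground in hypotonic buffer. Beads carrying control IgG cleared it first, and beads carrying an hnRNPK antibody then captured the RNA that was sequenced. Total RNA was made from liver and is not the input of the precipitation. The question put to the data is which transcripts in the cytoplasmic IP differ between the 2 obese states, and whether total RNA moves the same way.

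hnRNPK is an RNA-binding protein of the heterogeneous nuclear ribonucleoprotein family. It binds cytosine-rich stretches of RNA through KH domains, moves between nucleus and cytoplasm, and is known to act in splicing, transcription, mRNA stability and translation. Ob/ob mice carry a loss-of-function mutation in the gene of leptin, the fat-cell hormone that restrains food intake. They become obese, insulin resistant and heavily loaded with liver fat on ordinary food. High-fat feeding of C57BL/6J mice brings on obesity with leptin present.

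The files list 59121 transcripts in 31469 numbered clusters, and they do not pair these with gene names. Each cluster is therefore called by the transcript identifier with the most counts over all libraries, and liver markers, the transcript of hnRNPK itself and pathways were not analysed here. Cytoplasmic IP libraries held 8834063 to 12068891 estimated counts, total RNA libraries 25597307 to 41731910, and the IgG library of the cytoplasm, 1 library from mixed mice that its title calls IgG while its label reads as hnRNPK-bound RNA, 338469. Levels are given as CPM scaled for library composition, which are not per length. The same cluster was the most counted in every cytoplasmic IP library. It took 12.2% and 15.8% of the counts of the ob/ob libraries, 13.7% and 28.8% of those of high-fat diet, and 24.3% and 12.5% of those of normal diet. Across tested clusters, Pearson's r of log2 CPM was 0.976 within the ob/ob pair and 0.977 within the high-fat diet pair, against 0.941 to 0.958 between them. It was 0.954 within the normal-diet pair. By library size, no pair agreed within sampling noise. The chi-square per degree of freedom was 37.0 for ob/ob, 91.9 for high-fat diet and 103 for normal diet. Between ob/ob and high-fat diet libraries it was 74.6 to 197, a range that takes in the value of the high-fat diet pair. These values are without composition scaling, so they include shifts in composition such as that of the most counted cluster.

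Of 11901 clusters tested in the cytoplasmic IP, 127 differed between ob/ob and high-fat diet at an edgeR adjusted p under 0.05, which is 1.07%. Of these, 58 were higher in ob/ob (0.487% of those tested) and 69 were lower (0.58%). The higher clusters had a median log2 fold change of 1.80 and the lower ones -2.06, while the median absolute log2 fold change of all clusters tested was 0.30. A change of at least 2-fold was found in 57 of the 58 higher and 66 of the 69 lower clusters. At least 8-fold changes (3 on the log2 scale) were seen in 13 higher and 17 lower clusters. Both medians were the same with the 4 clusters at 0 counts in both libraries of a group placed at their bound. The ob/ob and high-fat diet libraries did not overlap in any of the 127 clusters, but this also held for 53.4% of all clusters tested. The last cluster inside the threshold had an edgeR adjusted p of 0.0496 and the first outside it 0.0506. In bulk liver, fewer cells of a type and less RNA per cell cannot be told apart.

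The count depends on single libraries. It was 79 without ob/ob replicate 1, 30 without ob/ob replicate 2, 25 without high-fat diet replicate 1 and 29 without high-fat diet replicate 2, but 608 and 618 without normal-diet replicates 1 and 2, which enter the filter and the estimate of the spread but not the contrast. Without composition scaling, 318 clusters were higher and 111 lower in ob/ob, and the median log2 fold change of all clusters shifted by 0.20. None of the 127 clusters changed sign in any of the alternative settings tried. The call held for 18 of them, 2 higher and 16 lower, in all 6 fits that leave out 1 cytoplasmic IP library.

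**Figure D1:**
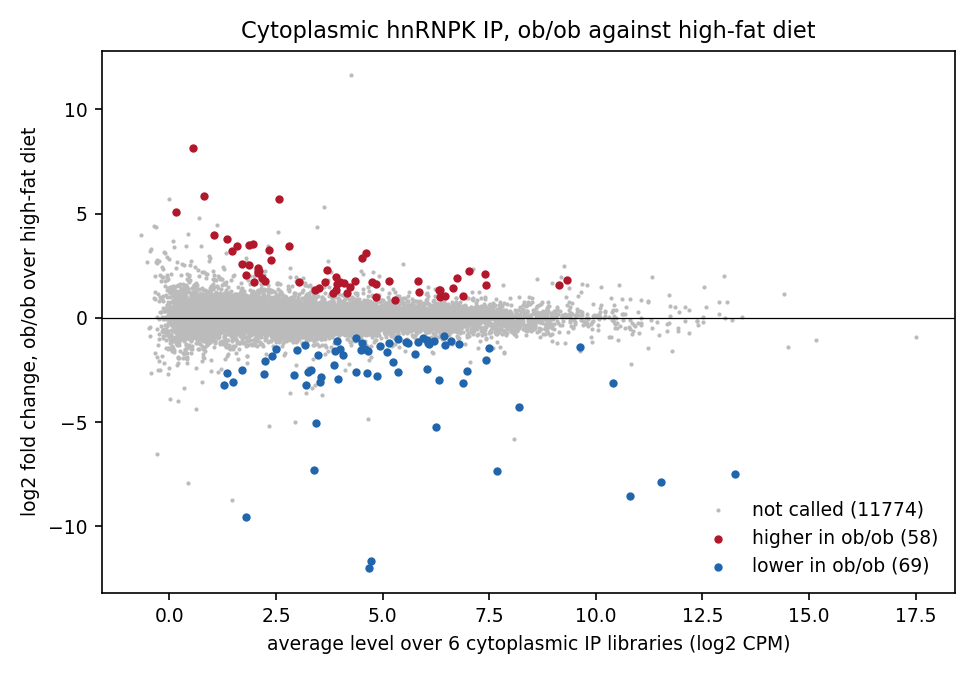
Log2 fold change of ob/ob over high-fat diet in the cytoplasmic hnRNPK IP (y axis) against average level over 6 libraries in log2 CPM (x axis), 1 point per cluster tested. Red and blue points are the 58 higher and 69 lower clusters at an edgeR adjusted p under 0.05, and the decreases reach farther at high levels than the increases do.

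The increases described by identifier are of the 48 higher clusters whose log2 CPM averaged 1 or more over the 6 cytoplasmic IP libraries. That limit removes clusters near 0 in both other groups, and 7 called clusters with larger log2 fold changes, 3.54 to 8.14, fall under it. Of these 7, the most abundant in ob/ob, picked out after its values were seen, has a leading transcript of 1260 nucleotides. It had 19.7 and 19.0 CPM in the ob/ob IP, against 0.374 and 0.318 CPM in the high-fat diet IP and 0.236 and 0.0 CPM in the normal-diet IP. The log2 fold change over high-fat diet was 5.72 ± 0.46 in the IP (SE, edgeR adjusted p = 0.000804) and 6.45 ± 0.50 in total RNA (0.0127), where ob/ob had 26.4 and 43.4 CPM and high-fat diet 0.451 and 0.368 CPM.

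Within the limit, uc008hpp.2 had the largest increase. It had 5.98 and 11.9 CPM in the ob/ob IP, against 0.874 and 0.637 CPM in the high-fat diet IP (66 and 113 counts against 7 and 4). Both ob/ob libraries were above both high-fat diet libraries, and normal diet lay between, at 2.71 and 1.92 CPM. The log2 fold change was 3.51 ± 0.51 (SE, edgeR adjusted p = 0.0206). Total RNA moved the same way, with 35.0 and 41.2 CPM in ob/ob and 12.4 and 10.3 CPM in high-fat diet (log2 fold change 1.79 ± 0.14, edgeR adjusted p = 0.0112). The IgG library gave 6.51 CPM from 3 counts, which is within the ob/ob IP range. The IP call was lost without ob/ob replicate 2 (adjusted p = 0.14), without high-fat diet replicate 1 (0.21) and without high-fat diet replicate 2 (0.19).

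Cluster uc009qaq.1 was next, and was the more even between libraries. It had 20.4 and 20.0 CPM in the ob/ob IP, against 1.87 and 1.75 CPM in the high-fat diet IP and 2.12 and 1.66 CPM in the normal-diet IP. High-fat and normal diet thus sat together, well below ob/ob. The log2 fold change over high-fat diet was 3.45 ± 0.28 (SE, edgeR adjusted p = 0.000818), and it stayed called in every alternative. In total RNA it had 6.68 and 6.85 CPM in ob/ob and 0.88 and 0.628 CPM in high-fat diet, a log2 fold change of 3.20 ± 0.23. The difference between these changes was 0.29 ± 0.35 (edgeR unadjusted p = 0.413). IgG gave 6.51 CPM from 3 counts, below the ob/ob IP and above the high-fat diet IP.

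The 58 higher clusters ran from rare to abundant. In 17 of them, both high-fat diet libraries were under 2 CPM, while the ob/ob libraries ranged from 2.63 to 20.4 CPM. Their median log2 fold change was 3.45 in the IP and 1.83 in total RNA. At the other end, 13 clusters had over 100 CPM in both ob/ob libraries, with ob/ob levels of 121 to 1354 CPM against high-fat diet levels of 30.6 to 388 CPM. The changes of these abundant clusters were smaller, with log2 fold changes of 1.01 to 2.26 in the IP and 0.35 to 1.92 in total RNA.

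The largest decreases were of clusters that were not counted in the ob/ob IP. Cluster uc012dfe.1 had 0 counts in both ob/ob IP libraries, against 70.3 and 51.1 CPM in the high-fat diet IP (884 counts summed) and 30.0 and 33.1 CPM in the normal-diet IP. A floor of 3 counts over both ob/ob libraries is 0.129 CPM by library size. By estimated counts it was then at least 371-fold lower in ob/ob (edgeR adjusted p = 9.27e-05). The bound does not cover how reads are divided among similar transcripts, so the true change may be smaller. That bound was 178 without ob/ob replicate 1, 193 without ob/ob replicate 2, 259 without high-fat diet replicate 1 and 492 without high-fat diet replicate 2. Total RNA had the same contrast, with 0.145 and 0.159 CPM in ob/ob and 38.0 and 20.9 CPM in high-fat diet (log2 fold change -7.54 ± 0.90, edgeR adjusted p = 0.0453). IgG gave 30.4 CPM from 14 counts, below both high-fat diet libraries.

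Cluster uc008tbo.3 also had 0 counts in both ob/ob IP libraries, against 42.2 and 52.2 CPM in the high-fat diet IP (666 counts summed) and 58.9 and 37.6 CPM in the normal-diet IP. By estimated counts, and with the same limit, it was at least 279.6-fold lower in ob/ob (edgeR adjusted p = 0.000177). The bound was 134 without ob/ob replicate 1 and 146 without ob/ob replicate 2. In total RNA it was far more abundant, at 14.1 and 31.6 CPM in ob/ob against 2674 and 3999 CPM in high-fat diet (log2 fold change -7.15 ± 0.54, edgeR adjusted p = 0.012). Within high-fat diet, its CPM was thus far lower in the IP than in total RNA. IgG gave 486 CPM from 224 counts, above every hnRNPK IP library. With all 12 IP libraries in 1 fit the IP decrease was no longer called (edgeR adjusted p = 0.053).

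These 2 clusters belong to a run of neighbouring cluster numbers, 18948 to 18961, in which each of the 11 tested clusters was lower in ob/ob and 9 were called. The run takes in tested clusters at most 2 numbers apart, each at least 2-fold lower, so that all 11 were lower follows from its definition. The run held 0.0577% and 0.143% of ob/ob IP counts against 2.37% and 2.38% of high-fat diet IP counts, and its 9 called clusters were lower in total RNA too. Reads of similar or overlapping transcripts are divided among them by estimation, so the split within such a run is uncertain. The run was singled out after its values were seen. It made up 13.0% of the lower calls, and outside it the other 60 lower clusters had a median log2 fold change of -1.75.

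Among all 69 lower clusters, 11 had under 2 CPM in both ob/ob libraries, with 2.25 to 70.3 CPM in high-fat diet. Another 19 had over 100 CPM in both high-fat diet libraries, with log2 fold changes of -8.52 to -0.85. The leading transcripts of the lower clusters had a median length of 2049 nucleotides and those of the higher clusters 2225, against 2698 over all clusters tested. Lengths of 500 to 1000 nucleotides were found in 15 of the 69 lower clusters (21.7%), in 5 of the 58 higher clusters (8.62%) and in 7.44% of all tested. All 9 called clusters of the run of neighbouring numbers are in this class, at 796 to 992 nucleotides. Outside the run it held 6 of the 60 lower clusters (10.0%), whose median length was 2207 nucleotides.

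**Figure D2:**
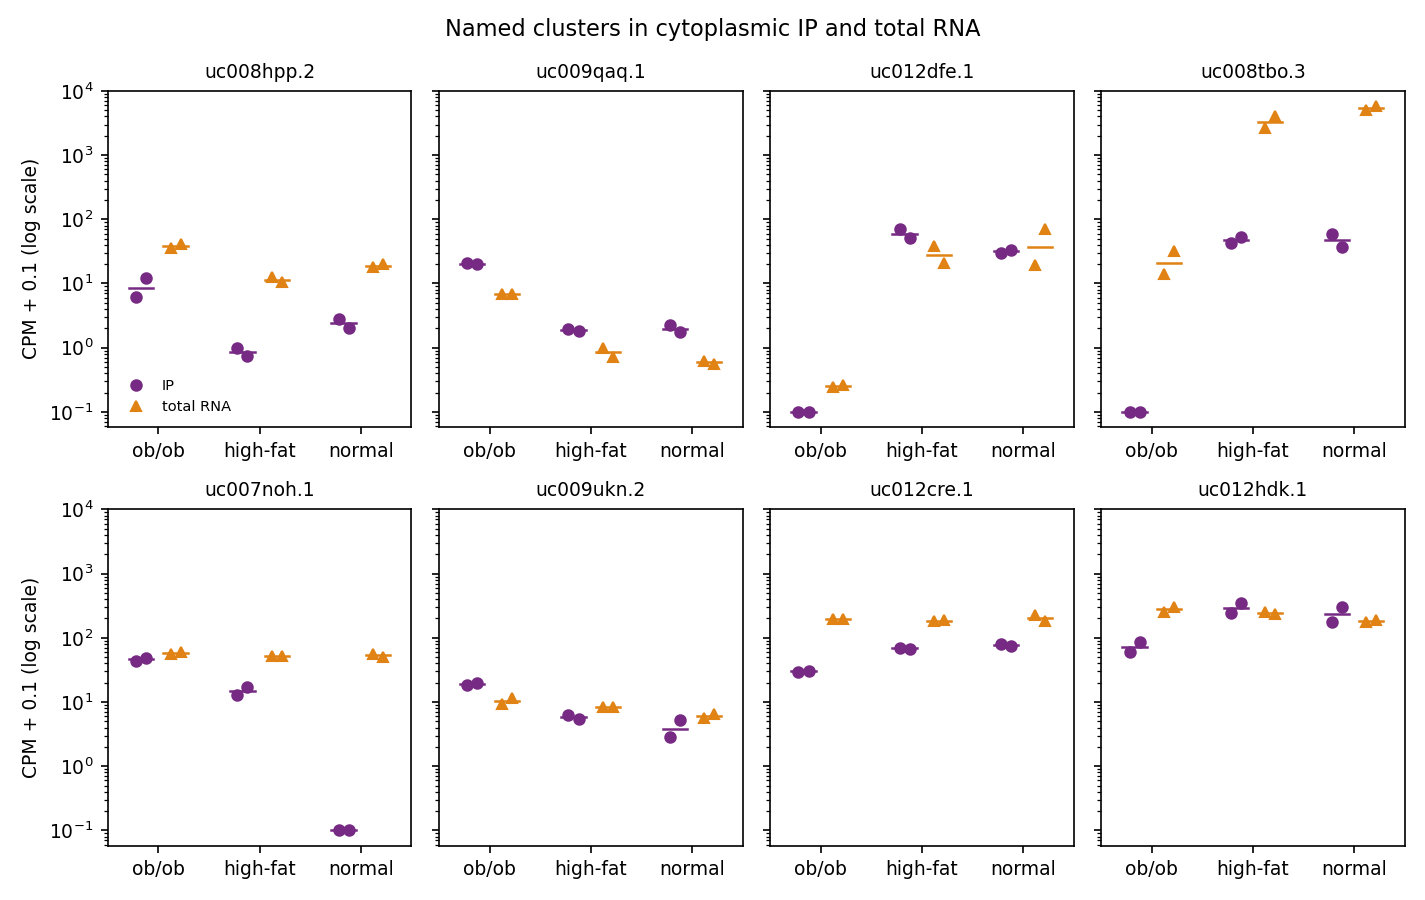
CPM plus 0.1 on a log axis for 8 clusters in ob/ob, high-fat diet and normal-diet livers, with circles for cytoplasmic IP, triangles for total RNA (each point a replicate) and lines for the geometric mean of 2. The upper row holds the 4 clusters named for their change in the IP, where total RNA moves the same way. The lower row holds 4 clusters whose IP levels differ between ob/ob and high-fat diet by more than their total RNA levels do.

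Total RNA was then examined for the direction of the same clusters. Of the 127 clusters called in the IP, 2 were not tested in total RNA, and 122 of the rest had the same sign there (97.6%, exact 95% interval 93.1 to 99.5, which takes clusters as independent). Over all 11829 clusters tested in both, 64.5% had the same sign. All 57 higher clusters tested in total RNA were higher there too, and 65 of 68 lower clusters were lower. A change of at least 2-fold in the same direction was found in total RNA for 27 higher and 46 lower clusters. Among the 11829 tested in both, it was found for 362. Across clusters, Pearson's r between the IP and total RNA log2 fold changes was 0.653 and Spearman's rho 0.452, as a description of clusters that are not independent replicates.

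Total RNA by itself gave 73 calls among 15487 clusters (0.471%), with 18 higher (0.116%) and 55 lower (0.355%) in ob/ob. Of the IP calls, 34 were also called in total RNA with the same sign, which is 26.8% of the 127 IP calls and 46.6% of the 73 total RNA calls. The total RNA count was 0 without either ob/ob replicate, 6 and 9 without high-fat diet replicates 1 and 2, and 1566 and 1588 without normal-diet replicates 1 and 2. Not being called in total RNA therefore does not show that a cluster did not change there.

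The called clusters differed by more in the IP than in total RNA. Their median absolute log2 fold change was 1.83 in the IP and 1.16 in total RNA. The change was the larger in the IP for 110 of the clusters tested in both (88.0%), against 63.5% of all clusters tested in both. These clusters were chosen by their IP values, which favours the IP in this count. Chosen the other way, by a call in total RNA, the 72 clusters tested in both had medians of 1.58 in the IP and 1.56 in total RNA, and 69 of them had the same sign in the IP.

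**Figure D3:**
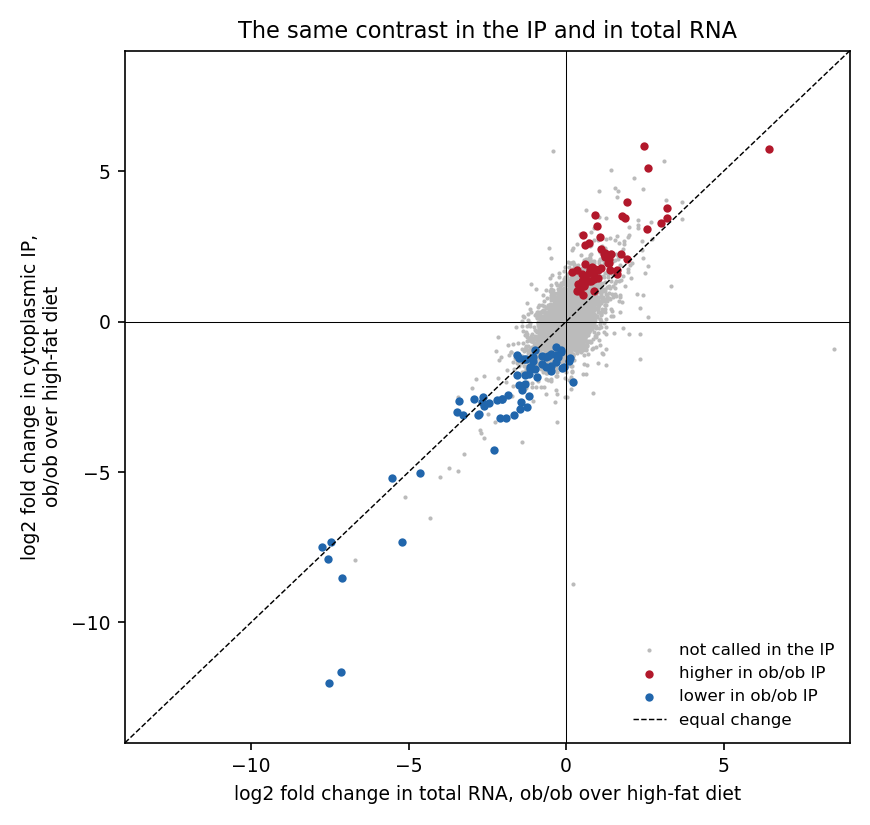
Log2 fold change of ob/ob over high-fat diet in the cytoplasmic IP (y axis) against the same contrast in total RNA (x axis), 1 point per cluster tested in both, with a dashed line at equal change. Of the coloured clusters called in the IP, 122 lie in the quadrants of the same sign, and 110 lie farther from 0 on the IP axis than on the total RNA axis.

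Whether the IP change differed from the total RNA change was tested directly. With edgeR, 0 of 15117 clusters passed the adjusted threshold (0.0%), with 1417 at an unadjusted p under 0.05 (9.37%), and DESeq2 called 126, 71 with a positive difference and 55 with a negative one. Cytoplasmic IP and total RNA of the same replicate number deviated together. In high-fat diet this was weak, and no more than between total RNA of high-fat and normal diet. With the replicate as a block edgeR called 7 clusters, 3 positive and 4 negative. Of these 7, 4 were among the 127 IP calls, and of the 126 clusters called by DESeq2, 14 were. At an unadjusted p under 0.05, 27 of the higher and 23 of the lower clusters had a difference in the direction of their IP change, and none in the other. Over all clusters tested in the IP, 774 were positive and 505 negative at that p. The called clusters were chosen by their IP change, which is part of the difference, so its direction among them is a description and supports nothing.

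The named clusters of this comparison were the 2 in each direction with the smallest p of the difference among IP calls, taken after the values were seen. Some lower clusters not named here had a smaller p than uc009ukn.2. Cluster uc007noh.1 had 44.2 and 49.2 CPM in the ob/ob IP and 12.6 and 17.04 CPM in the high-fat diet IP (log2 fold change 1.65 ± 0.23, edgeR adjusted p = 0.0208). In total RNA it had 56.3 and 59.1 CPM in ob/ob and 51.8 and 52.6 CPM in high-fat diet, so the groups there were close. The IP change exceeded that of total RNA by 1.5 ± 0.22 on the log2 scale, with an edgeR adjusted p of 0.41, and of 0.038 with the replicate block. The cluster was at 0 counts in both normal-diet IP libraries, in the IgG library and in the ob/ob and high-fat diet nuclear IP libraries, while normal-diet total RNA had 56.6 and 50.5 CPM. Since counts are divided among similar transcripts by estimation, these zeros may be failed estimates, and the IP levels of this cluster and its difference from total RNA are uncertain for the same reason.

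Cluster uc009ukn.2 had 18.02 and 19.8 CPM in the ob/ob IP and 6.12 and 5.41 CPM in the high-fat diet IP, against total RNA levels of 9.30 and 11.5 CPM in ob/ob and 8.25 and 8.39 CPM in high-fat diet. Its log2 fold change was 1.70 ± 0.30 in the IP (edgeR adjusted p = 0.0407) and 0.36 ± 0.15 in total RNA (0.226). The difference was 1.37 ± 0.33 (edgeR adjusted p = 0.446, and 0.12 with the replicate block), and it was called by DESeq2 (adjusted p = 0.014), as were those of the other 3 clusters named here. IgG gave 10.8 CPM from 5 counts, between the levels of the ob/ob and high-fat diet IPs. In these IP libraries the transcript that names the cluster held 0.0% to 9.41% of its deposited TPM. Transcript uc009ukm.2 held 90.6% to 100.0%, so the values are mostly not those of the naming transcript.

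Cluster uc012cre.1 was lower in the ob/ob IP, with 29.0 and 30.8 CPM against 69.5 and 66.9 CPM in the high-fat diet IP and 79.1 and 74.2 CPM in the normal-diet IP. Its total RNA levels lay close together, at 196 and 199 CPM in ob/ob and 184 and 187 CPM in high-fat diet. The log2 fold change was -1.20 ± 0.16 in the IP (edgeR adjusted p = 0.0133) and 0.13 ± 0.13 in total RNA (0.622). The difference was -1.30 ± 0.19 (edgeR adjusted p = 0.41, and 0.038 with the replicate block). IgG gave 135 CPM from 62 counts, above all 4 IP libraries. In these 4 libraries the transcript that names the cluster held 3.31% to 16.2% of its deposited TPM, and uc012crf.1 held 83.8% to 96.7%.

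Cluster uc012hdk.1 had 60.2 and 87.2 CPM in the ob/ob IP against 243 and 353 CPM in the high-fat diet IP, while total RNA had 256 and 300.5 CPM in ob/ob and 254 and 233 CPM in high-fat diet. The IP log2 fold change was -2.02 ± 0.33 (edgeR adjusted p = 0.0325), that of total RNA 0.23 ± 0.13 (0.337), and the difference -2.22 ± 0.39 (0.446, and 0.024 with the replicate block). IgG gave 1441 CPM from 664 counts, above all 4 IP libraries. The IP calls of these 4 clusters were each lost when any ob/ob or high-fat diet library was left out, with edgeR adjusted p of 0.059 to 0.34, and their sign was kept. With all 12 IP libraries in 1 fit, the IP decrease of uc012hdk.1 was no longer called either (edgeR adjusted p = 0.082).

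In all, 3 called clusters had opposite signs in IP and total RNA, which were uc012cre.1, uc012hdk.1 and a cluster whose leading transcript is 745 nucleotides long. The last had 7.97 and 6.64 CPM in the ob/ob IP and 17.8 and 18.3 CPM in the high-fat diet IP, against total RNA levels of 4.30 and 3.30 CPM in ob/ob and 3.54 and 3.73 CPM in high-fat diet. In each of the 3, the total RNA difference was within 0.23 on the log2 scale and not called. Under 1.2-fold change in total RNA was found for 9 called clusters, 1 higher and 8 lower. The 8 lower ones had log2 fold changes of -2.02 to -0.95 in the IP and -0.25 to 0.23 in total RNA.

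Levels in the IgG library were set beside those of the called clusters. Both ob/ob libraries were above IgG in 49 of the 58 higher clusters (84.5%), against 67.6% of all clusters tested with a positive log2 fold change. Both high-fat diet libraries were above IgG in 46 of the 69 lower clusters (66.7%), against 58.3% of all tested with a negative one. The called clusters were chosen for a high level in the group counted here, which favours both shares, so they support nothing about binding. All 4 libraries were above IgG in 33 of the 127 called clusters (26.0%), against 52.0% of all clusters tested. This held for 24 of the higher clusters (41.4%) and 9 of the lower ones (13.0%). The low level of 1 group in many called clusters holds these counts down. Both high-fat diet libraries were under 2 CPM in 17 higher clusters, and both ob/ob libraries in 11 lower ones. Such clusters could be above IgG only where IgG had 0 counts, since 1 IgG count is over 2 CPM (3 counts gave 6.51 CPM). IgG had 0 counts in 8 of the 127 called clusters. How much this adds to the gap from all clusters tested was not tested. The part of nonspecific RNA in the changes was not tested, since there is 1 IgG library for the cytoplasm and it is from mixed mice.

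The nuclear IP gave the same direction as the cytoplasmic IP. All 124 called clusters tested in both had the same sign there, against 71.1% of all clusters tested in both. The median log2 fold change in the nuclear IP was 1.73 for the higher clusters and -2.00 for the lower ones. The nuclear IP used a salt extract of the nuclei of the same 3 mouse groups.

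The normal-diet IP shows on which side each called cluster stands. Its mean log2 CPM was nearer to high-fat diet than to ob/ob in 105 of the 127 clusters (82.7%), against 57.2% of all clusters tested. For the 58 higher clusters, the median difference from normal diet was 1.73 for ob/ob and -0.03 for high-fat diet on the log2 scale. For the 69 lower clusters, it was -1.71 for ob/ob and 0.22 for high-fat diet. The normal-diet mean lay between the others in 73 clusters (57.5%, against 28.5% of all tested). These positions are descriptions of clusters chosen by their difference between ob/ob and high-fat diet, and were not tested.

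The remaining 22 clusters stood the other way, with normal diet nearer to ob/ob. In 7 of these, all higher in ob/ob, the median difference from normal diet was 0.64 for ob/ob and -2.00 for high-fat diet. In the other 15, all lower in ob/ob, it was -0.47 for ob/ob and 1.09 for high-fat diet, with ob/ob levels of 2.99 to 86.5 CPM against 17.8 to 209 CPM in high-fat diet. All 15 were above IgG in both high-fat diet libraries, which their choice by a high level there favours.

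**Figure D4:**
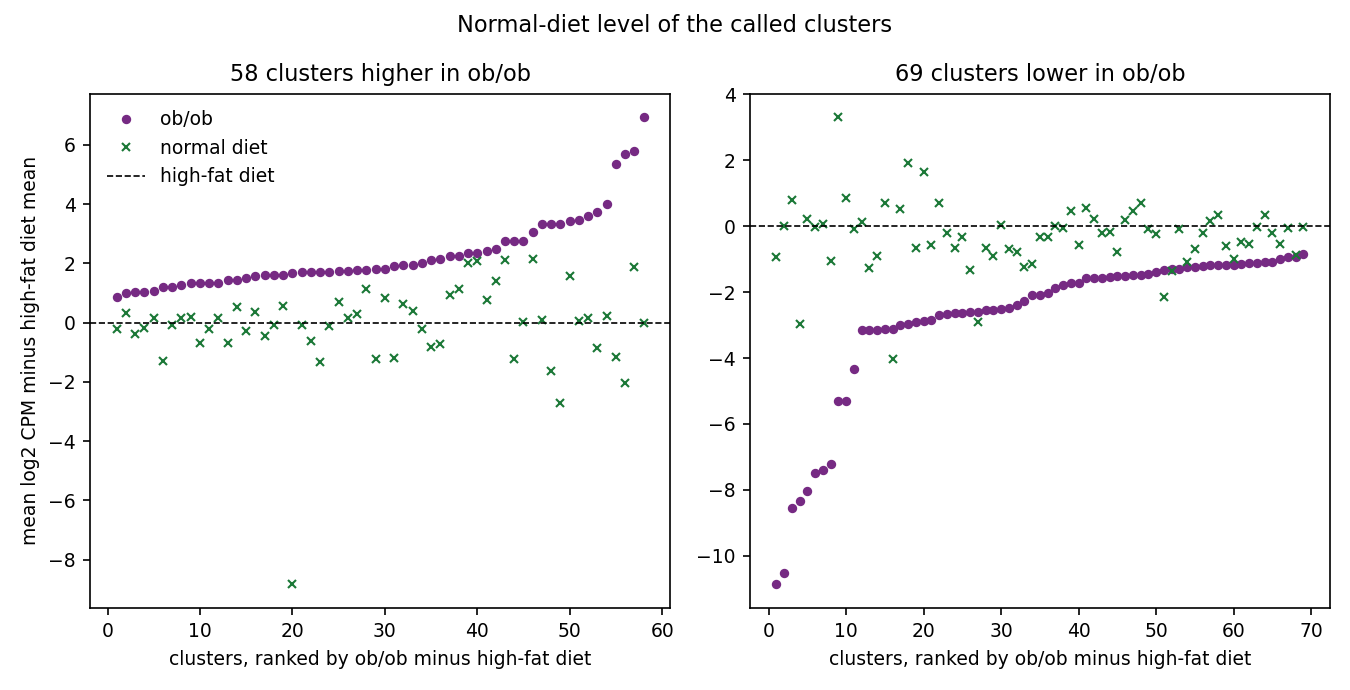
Mean log2 CPM in the cytoplasmic IP minus the high-fat diet mean (y axis) for ob/ob (circles) and normal diet (crosses), with 1 position on the x axis per called cluster, ranked by the ob/ob difference. The dashed line at 0 is high-fat diet, and most crosses lie nearer to it than to the circles in both panels (51 of 58 on the left, 54 of 69 on the right).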

How the data were processed

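Cytoplasmic hnRNPK IP, nuclear IP and total RNA libraries of mouse liver were used. The deposited tables hold, per transcript, expected counts and TPM made by the authors with RSEM 1.2.8. Per the submitters' processing notes, Bowtie2 2.1.0 and TopHat2 2.0.10 were also used, on build mm10, in roles not given there. Deposited TPM served only isoform shares, and transcript length is as deposited. Whether counting used strand is not given here.

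For each cluster, expected counts were added up and rounded. The 2 total RNA libraries of a replicate number were summed to 1 unit, as runs of the same RNA, which the labels do not state. The main test was the quasi-likelihood test of edgeR 4.0.16 (R 4.3.3, limma 3.58.1) with TMM scaling, the filterByExpr filter, robust estimation and Benjamini-Hochberg adjustment over all clusters tested, at 0.05. The IP fit held 6 cytoplasmic IP libraries, the total RNA fit 6 units, and the test of the difference all 12. DESeq2 1.42.0 was an alternative. The SE was derived as |log2 fold change|/√F. CPM are scaled over all units and IgG libraries. Steps were tested on simulated data.

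Groups came from the labels, which do not say that replicates are separate animals, so the p-values reflect the spread between libraries alone, possibly only technical. Cytoplasmic IP and total RNA of the same number deviated together, so the block was printed for their difference. The r of replicate 1 minus 2 across clusters was 0.35 in ob/ob, 0.18 in high-fat diet and 0.42 in normal diet. That of high-fat diet is little above the 0.16 between the high-fat and normal-diet IPs, and total RNA of these 2 groups gave 0.181. Total RNA of ob/ob gave -0.113 with high-fat diet and -0.238 with normal diet. Whether the numbers pair IP and total RNA in high-fat diet is thus not settled, which limits the block. Floors cover the counting error of estimated counts only. The exact interval takes clusters as independent draws and covers neither counting error nor the spread between libraries. Named clusters are the 2 with the largest change in each direction among called clusters whose log2 CPM averaged 1 or more, with no overlap between groups (48 higher and 66 lower qualified). The comparison, the settings and the clusters singled out were chosen with earlier results of these data known.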

Additional observations from a re-analysis of the deposited data

How the results depend on the processing

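Counts of clusters called in the cytoplasmic IP (127) were 129 with the size factors of DESeq2 and 113 among clusters whose log2 CPM averaged 1 or more, but 429 by library size only, 352 with DESeq2, 940 without a filter, 608 from the ob/ob and high-fat diet libraries alone, 234 from 12 IP libraries and 480 from 18 units. Leaving out 1 library gave 25 to 618. Within the cytoplasmic IP, replicate 1 minus 2 had an r of 0.0857 between ob/ob and high-fat diet. It was -0.00896 between ob/ob and normal diet, and 0.16 between high-fat and normal diet. The last is near the 0.18 between IP and total RNA of high-fat diet, so whether replicate numbers pair the mouse groups is not settled. With the replicate block 223 were called. Total RNA calls (73) were 45 by library size only, 1433 with DESeq2, 215 without a filter, 32 with the replicate block, 4869 with each library as its own replicate and 0 to 1588 with 1 replicate left out. The difference from total RNA (0 calls) gave 126 calls with DESeq2 and 7 with the replicate block, and 0 under every other alternative, leaving out each replicate included. The share with the same sign in total RNA (97.6%) was 89.2% without a filter, 89.4% from the ob/ob and high-fat diet libraries alone, 90.4% from 18 units, and 89.3% to 100% with 1 replicate left out. Fits without robust estimation, chosen after seeing the data, gave 118, 76 and 0 calls for the IP, total RNA and the difference. No result reversed. The causes were not tested, except that each left-out ob/ob or high-fat diet library leaves its group with 1 library, whose spread is then taken from the others. Low counts limit the IgG library and clusters of a few CPM.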

Other observations

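Isoform use within clusters was set side by side in the cytoplasmic IP from the deposited TPM, with no test. Among 4073 clusters with several isoforms and at least 10 CPM in all 4 libraries, the leading isoform, by share of TPM, differed between ob/ob and high-fat diet in 241 (5.92%). Of the 36 called clusters in this class, it differed in 3. A gap of 30 points or more between the groups in an isoform's share was found in 56 clusters.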
